A study of Mus musculus with 36 samples.

Results

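Tissue-resident alveolar macrophages (TR-AΦ) of mice that breathed filtered air (FA) were compared between 32-weeks and 4-weeks of exposure. The comparison covered the 12388 of 27562 genes whose FPKM averaged at least 1 over the 6 libraries, 3 at each time point. FPKM is the number of sequenced fragments per kilobase of transcript, scaled to the number of mapped fragments of the library, so that levels can be compared between genes of different length. The mice were C57BL/6J males carrying CD45.2 that had received lethal irradiation with the chest shielded, then busulfan, then bone marrow of B6.SJL-Ptprca Pepcb/BoyJ donors carrying CD45.1. All groups shared this treatment, the 4-weeks group included. At both time points the AΦ were sorted from enzymatically digested lung as CD64+, CD11c high and CD11b low cells, and every library came from 1 mouse. At 32-weeks the TR-AΦ libraries are those labelled as AΦ of CD45.2 origin, that is, cells of the irradiated host rather than of the donor marrow, and at 4-weeks the label names no origin. The time points differ in the length of exposure, in the age of the mice and in the time since irradiation and transplant, and these cannot be told apart, nor can any difference in handling between the 2 time points. In 36 libraries of 12 groups, the same table also held TR-AΦ of mice exposed to concentrated ambient particles (PM2.5) at both time points, AΦ derived from donor marrow (BM-AΦ) at 32-weeks, and monocytes.

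AΦ are long-lived phagocytes of the air spaces that clear surfactant lipid and inhaled particles and that depend on GM-CSF and the nuclear receptor PPARγ. They also answer to microbial and tissue damage signals through NF-κB, a family of transcription factors held in the cytoplasm by IκB proteins. When these inhibitors are degraded, NF-κB enters the nucleus and switches on cytokines, chemokines and, as feedback, the genes of its own inhibitors. A second route runs through interferon and the IRF factors. RNA of the first wave of such genes, and of the immediate early genes that answer to growth factor and stress signals, is short-lived.

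Promoters of 5 genes that were lower at 32-weeks are shown because their letters hold motifs of the routes just named. Each line gives the 250 bases before the transcription start from RefSeq (build GRCm38.p6), 5′ to 3′ on the strand of the gene, in lower case. Capitals mark matches to the kappa B motif of NF-κB and, in Cxcl10 and Isg15, to the ISRE of interferon signalling (GAAA, any 2 bases, then GAAA again). Both strands were searched, and overlapping matches form a single run of capitals.

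Cxcl10 (chr5:92348890-92349139, minus strand): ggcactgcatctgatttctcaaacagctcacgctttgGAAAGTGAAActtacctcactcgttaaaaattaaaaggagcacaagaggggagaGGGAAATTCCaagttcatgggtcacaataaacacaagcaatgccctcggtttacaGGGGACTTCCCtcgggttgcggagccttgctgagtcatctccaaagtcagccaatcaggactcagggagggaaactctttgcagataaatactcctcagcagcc

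Isg15 (chr4:156200819-156201068, minus strand): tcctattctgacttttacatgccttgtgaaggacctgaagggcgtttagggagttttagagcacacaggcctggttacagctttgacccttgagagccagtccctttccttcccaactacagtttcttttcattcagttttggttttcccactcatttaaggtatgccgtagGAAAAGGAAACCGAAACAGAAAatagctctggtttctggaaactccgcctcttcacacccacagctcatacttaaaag

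Irf1 (chr11:53769764-53770013, plus strand): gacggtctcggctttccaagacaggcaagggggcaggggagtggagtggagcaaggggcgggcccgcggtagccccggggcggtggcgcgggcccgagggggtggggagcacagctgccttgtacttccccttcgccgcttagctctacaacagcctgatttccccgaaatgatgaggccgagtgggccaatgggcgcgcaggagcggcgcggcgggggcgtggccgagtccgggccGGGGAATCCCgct

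Cxcl1 (chr5:90890995-90891244, plus strand): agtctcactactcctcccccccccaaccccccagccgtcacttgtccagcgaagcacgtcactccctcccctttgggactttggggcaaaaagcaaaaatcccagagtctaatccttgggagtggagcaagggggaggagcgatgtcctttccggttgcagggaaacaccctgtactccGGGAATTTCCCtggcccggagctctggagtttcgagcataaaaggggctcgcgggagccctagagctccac

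Nfkbia (chr12:55492648-55492897, minus strand): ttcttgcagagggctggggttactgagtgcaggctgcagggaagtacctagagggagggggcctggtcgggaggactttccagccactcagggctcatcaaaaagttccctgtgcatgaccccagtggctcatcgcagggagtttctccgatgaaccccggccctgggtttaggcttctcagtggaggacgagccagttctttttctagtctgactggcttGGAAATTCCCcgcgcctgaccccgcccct

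The Cxcl10 window held 1 ISRE match, which began 213 bases before the start, and 3 kappa B matches that began 159, 104 and 103 bases before it. Isg15 had 3 overlapping ISRE matches that began 78, 72 and 66 bases before its start. Irf1 had a kappa B match at 13 bases, Cxcl1 had overlapping kappa B matches at 71 and 70 bases, and Nfkbia had 1 at 29 bases. A match describes the letters and is not evidence that a factor was bound.

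The label was checked against marker genes. All 13 AΦ markers in the table passed the filter and none passed the test between time points. Their summed FPKM was 7824 to 9592 in the 4-weeks libraries and 8489 to 13576 in the 32-weeks libraries. Chil3, a chitinase-like protein of AΦ, had 4226, 4522 and 5451 FPKM at 4-weeks and 4697, 5141 and 8159 FPKM at 32-weeks, and Siglecf, Pparg, Mrc1, Itgax and Marco were present in every library. Of 12 monocyte markers, 10 were tested and 0 passed. Their log2 fold changes of 32-weeks over 4-weeks had a median of -1.08, with 9 below 0 and 1 above. Of all 12388 genes tested 5918 lay below 0. The summed FPKM of monocyte markers was 292 to 519 at 4-weeks and 94.2 to 364 at 32-weeks. Most of that sum was Nr4a1, which is also an immediate early gene. Ly6c2, a surface protein of classical monocytes, was listed at 0 in 5 libraries and at 16.5 FPKM in replicate 2 of 4-weeks, and Plac8 was listed at 0 in 4 libraries, at 32.4 FPKM in that replicate and at 1.49 FPKM in replicate 2 of 32-weeks. Of 11 interstitial macrophage markers, 9 were tested and 0 passed. Of these, 8 lay below 0 and 1 above, with a median of -0.95. The sum of interstitial macrophage markers was 51.2 to 244 FPKM at 4-weeks and 31.0 to 84.9 FPKM at 32-weeks. The B cell sum was 25.5 FPKM in replicate 2 of 4-weeks and 1.23 to 4.70 FPKM in the other 5 libraries, and the sum for T and NK cells was 13.8 FPKM in that replicate and 0.376 to 3.44 FPKM in the others. Neutrophil markers summed to 14.5 to 36.8 FPKM, with Retnlg and Camp listed at 0 in all 6 libraries. Cpa3, Fcer1a, Mcpt8, Ms4a2 and Epx of eosinophils and basophils, Cd3d and Trbc2 of T cells and Krt5 of airway epithelium were also listed at 0 in all 6. Dendritic cell markers summed to 2.19 to 9.38 FPKM, red cell markers to 2.66 to 42.5 FPKM, alveolar epithelial markers to 72.8 to 112 FPKM, most of it Epcam and Cdh1, airway epithelial markers to 3.11 to 77.7 FPKM, endothelial markers to 8.08 to 9.81 FPKM and fibroblast and smooth muscle markers to 0.450 to 3.17 FPKM. The sums of monocyte and interstitial macrophage markers reached higher at 4-weeks, and the part of such cells in the lower genes was not tested.

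The FPKM of a library summed to 1839580 to 2580780, and 11469 to 12174 genes reached 1 FPKM. In a principal component analysis of the 6 libraries the first component, with 27.2% of the variance, placed replicate 2 of each time point at 47.3 and 83.4 and the other 4 libraries between -61.1 and -18.5. The second component, with 21.2%, placed the 4-weeks libraries between -55.8 and -32.6 and the 32-weeks libraries between 16.4 and 56.6. Replicate 2 of each time point thus stood apart along the larger component, and main counts below are also given without them. In a sorted pool, fewer cells that express a gene and less RNA per cell cannot be told apart.

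The genes of tumour necrosis factor (Tnf), the chemokines Cxcl10 and Cxcl1, epiregulin (Ereg) and the NF-κB inhibitor IκBα (Nfkbia) were among those lower in TR-AΦ of FA mice at 32-weeks than at 4-weeks. The smaller set of higher genes held the collagen genes Col4a1 and Col4a2 and the glucocorticoid receptor targets Fkbp5, Klf9 and Pdk4. Values were tested with limma as log2(FPKM + 1), all 18 AΦ libraries serving to estimate the error of each gene, on a scale that understates changes of genes with low FPKM. At an adjusted p under 0.05, 106 genes passed, which is 0.856% of those tested. Of these 86 (0.694%) were lower and 20 (0.161%) were higher at 32-weeks, and 1558 genes (12.6%) were under 0.05 before adjustment. All 106 had groups that did not overlap, and so did 15.8% of all genes tested (7.75% higher and 8.05% lower). The median log2 fold change was -1.63 among the lower genes and 1.11 among the higher genes, beside 0.02 over all genes. Of all 12388 genes 5918 lay below 0 and 6470 above. A change of at least 2-fold on this scale was found for 77 of the lower and 12 of the higher genes. In a model of just the 6 libraries 15 genes passed, of which 10 were among the 106. Leaving out 1 library at a time gave 50 to 179 genes. Without replicate 2 of both time points, a choice made after the data were seen, 109 genes passed and 55 of them were among the 106. Per the study's methods 3 mice of each exposure and time were sequenced, so TR-AΦ and BM-AΦ of 32-weeks came from the same mice, and the fit treats them as independent. With the 12 TR-AΦ libraries alone, which share no mouse, 68 genes passed and 57 of them were among the 106, a choice also made after the data were seen.

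**Figure D1:**
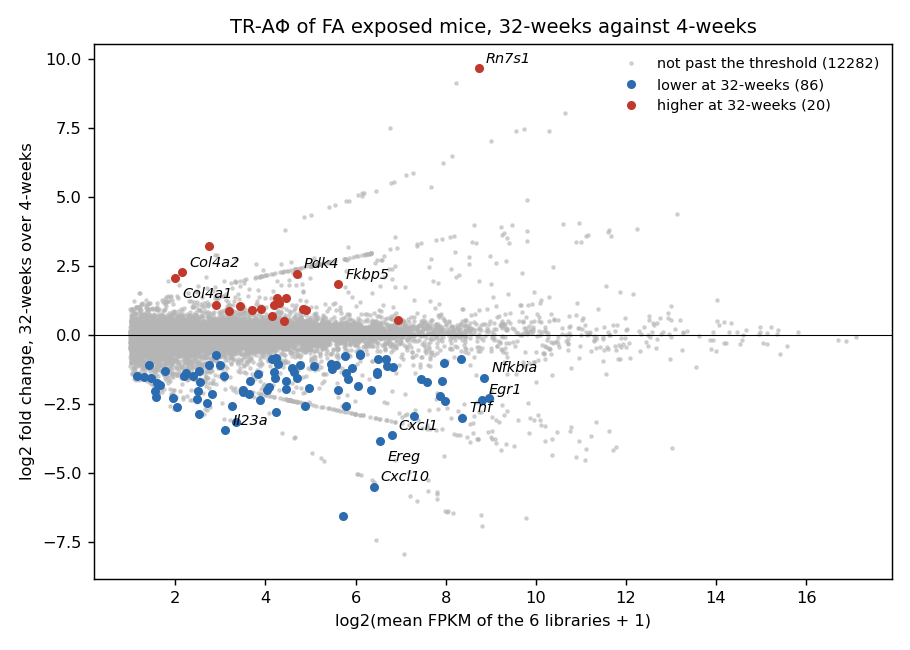
Each point is 1 of the 12388 genes, with log2(mean FPKM of the 6 libraries + 1) on the horizontal axis and the log2 fold change of 32-weeks over 4-weeks on the vertical axis. The 86 lower genes (blue) include genes of high level such as Tnf and Nfkbia, the 20 higher genes (red) are mostly of low level, and Rn7s1 at the top was listed at 0 in all 4-weeks libraries.

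Tnf, which encodes tumour necrosis factor, the prototype inflammatory cytokine of macrophages, had the smallest adjusted p of the 86 lower genes. On chromosome 17 (35199381 to 35202007, mm10) it had 685, 469 and 585 FPKM in the 4-weeks libraries and 60.0, 60.8 and 99.6 FPKM in the 32-weeks libraries. Every 4-weeks library was far above every 32-weeks library, and the mean FPKM was 7.89 times higher at 4-weeks. Tnf fell by 2.99 on the log2 scale (SE 0.21, adjusted p 6.10e-06). Of 22 cytokine genes tested 4 passed, all lower at 32-weeks, and 0 were higher. The median of the list was -0.69, and 19 of 22 lay below 0, beside 5918 of all 12388 genes. Il23a, the specific subunit of interleukin 23, a cytokine that sustains type 17 T cells, had 22.4, 14.2 and 7.80 FPKM at 4-weeks. It was listed at 0 in 2 of the 32-weeks libraries and at 1.46 FPKM in the third, and it fell by 3.44 (SE 0.42, adjusted p 0.00124). The other members were Ereg and Areg, which encode epiregulin and amphiregulin, growth factors of the EGF family that act on epithelium. Ereg had 118, 110 and 290 FPKM at 4-weeks and 9.93, 4.11 and 22.4 FPKM at 32-weeks, a log2 fold change of -3.84 (SE 0.61, adjusted p 0.00706). Areg had 43.5, 47.0 and 56.0 FPKM at 4-weeks and 8.75, 3.41 and 12.7 FPKM at 32-weeks, a log2 fold change of -2.57 (SE 0.40, adjusted p 0.00648). For both, no library of one time point reached the range of the other. Il1b, the gene of pro-interleukin 1β, had 104, 132 and 636 FPKM at 4-weeks and 12.98, 9.14 and 102 FPKM at 32-weeks. Its groups did not overlap, yet the spread within them was wide and it did not pass (log2 fold change -3.09, adjusted p 0.24). The same held for Il6 with a log2 fold change of -3.54 (adjusted p 0.0544). The most abundant other cytokine genes, Il1rn and Tgfb1, had log2 fold changes of -0.79 and 0.31 and did not pass. The count of 4 became 1, Tnf, in a model of just the 6 libraries.

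Among CXC chemokine genes, 3 of 9 tested were lower at 32-weeks, with none higher and a median of -1.55. Cxcl10 encodes the ligand of CXCR3 that draws activated T cells and is induced by interferon and NF-κB. It lies on chromosome 5 (92346638 to 92348889) and had 241, 187 and 65.8 FPKM at 4-weeks against 2.17, 1.20 and 3.74 FPKM at 32-weeks. The lowest 4-weeks library was more than an order of magnitude above the highest 32-weeks library, and the log2 fold change was -5.50 (SE 0.54, adjusted p 0.000205). Cxcl1 and Cxcl2 encode neutrophil chemoattractants. Cxcl1 had 148, 173 and 277 FPKM at 4-weeks and 7.54, 8.24 and 47.8 FPKM at 32-weeks, a log2 fold change of -3.62 (SE 0.61, adjusted p 0.00978). Cxcl2 had 688, 821 and 900 FPKM at 4-weeks and 165, 82.8 and 320 FPKM at 32-weeks, a log2 fold change of -2.28 (SE 0.43, adjusted p 0.0206). In both, replicate 2 was the highest library of 32-weeks. Just 1 of the 3 passed without replicate 0 of 32-weeks or in a model of just the 6 libraries, and 2 passed without replicate 1 of 32-weeks or without any 1 replicate of 4-weeks. Cxcl10 passed in each of these fits, while Cxcl2 passed in 1 of the 6 fits that leave out a library (without replicate 2 of 32-weeks) and Cxcl1 in 5 (adjusted p 0.0531 without replicate 0 of 32-weeks). Pf4, platelet factor 4, Cxcl3 and Cxcl16 had log2 fold changes of -1.95, -1.06 and -0.78 and did not pass. None of 11 CC chemokine genes passed (median -0.58). Among them Ccl6, the most abundant, had 1319, 2082 and 2075 FPKM at 4-weeks and 2770, 3349 and 4499 FPKM at 32-weeks (log2 fold change 0.96, adjusted p 0.29), while Ccl4 had 63.3, 42.0 and 39.5 FPKM and then 5.26, 3.20 and 27.1 FPKM (-2.41, adjusted p 0.15).

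Cxcl1, Cxcl2, Ereg and Areg are neighbours. They lie on the plus strand of chromosome 5 within 257 kb, from 90891241 to 91148432, and a gap of 10.8 kb parts Cxcl1 from Cxcl2 and 46.0 kb parts Ereg from Areg. The span was set by these called genes themselves. It held 5 tested genes, and Mthfd2l, a mitochondrial folate enzyme gene between Cxcl2 and Ereg, did not pass (log2 fold change -0.69, adjusted p 0.63).

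Among the subunits and feedback inhibitors of NF-κB, 8 of 20 genes tested were lower at 32-weeks and 0 were higher, where 0.694% of all genes were called lower. All 20 lay below 0, with a median of -1.04, beside 5918 of all 12388 genes. In 17 of the 20 the 32-weeks libraries all lay below the 4-weeks libraries, as they did in 8.05% of all genes. The 8 were mostly inhibitors. Nfkbia, the gene of IκBα, the main inhibitor, on chromosome 12 (55489410 to 55492647), had 643, 775 and 631 FPKM at 4-weeks and 201, 205 and 310 FPKM at 32-weeks. The groups were far apart, with a log2 fold change of -1.54 (SE 0.22, adjusted p 0.00410). Tnfaip3 encodes A20, an enzyme that edits ubiquitin and ends the signal upstream of IκB. It had 382, 339 and 414 FPKM and then 81.8, 52.4 and 124 FPKM, a log2 fold change of -2.20 (SE 0.34, adjusted p 0.00648). Nfkbiz encodes IκBζ, a nuclear cofactor needed for secondary targets, and had the largest change of the list, with 208, 208 and 405 FPKM at 4-weeks and 20.02, 29.2 and 60.2 FPKM at 32-weeks (-2.95, SE 0.46, adjusted p 0.00664). Nfkbid, another nuclear IκB, stayed between 45.9 and 48.7 FPKM at 4-weeks and spread from 5.54 to 25.5 FPKM at 32-weeks (-1.92, adjusted p 0.0466). Nfkbie and Nfkbib, the genes of IκBε and IκBβ, fell by 1.56 and 1.12 (adjusted p 0.00978 and 0.0288), and Tnip1, a partner of A20, fell by 0.82 (adjusted p 0.0270). The remaining gene was Nfkb2, which encodes the p100 and p52 subunit, with a log2 fold change of -1.07 (adjusted p 0.0473). Of the other DNA-binding subunits, Nfkb1, Rela, Relb and Rel had log2 fold changes of -0.50, -0.41, -0.47 and -1.30 and did not pass. The number of members past the threshold was 4 without replicate 2 of both time points and 1 in a model of just the 6 libraries. It was 3 without replicate 0 of 32-weeks, 3 without replicate 0 of 4-weeks, and 5 without replicate 1 of 32-weeks or replicate 1 or 2 of 4-weeks.

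Kappa B letters were counted in RefSeq windows of 300 bases around transcription starts. Of the 86 lower genes 47 had a window, and 20 of their 62 windows (32.3%) held a match. Of the 20 higher genes 14 had a window, and 2 of 15 windows (13.3%) held one. The share was 8.46% of the 32851 windows of all genes and 10.3% of the 9888 windows of the genes tested here. For the ISRE these shares were 8.06%, 6.67%, 3.44% and 3.04%. These shares describe letters and were not tested, and genes with several starts counted more than once.

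**Figure D2:**
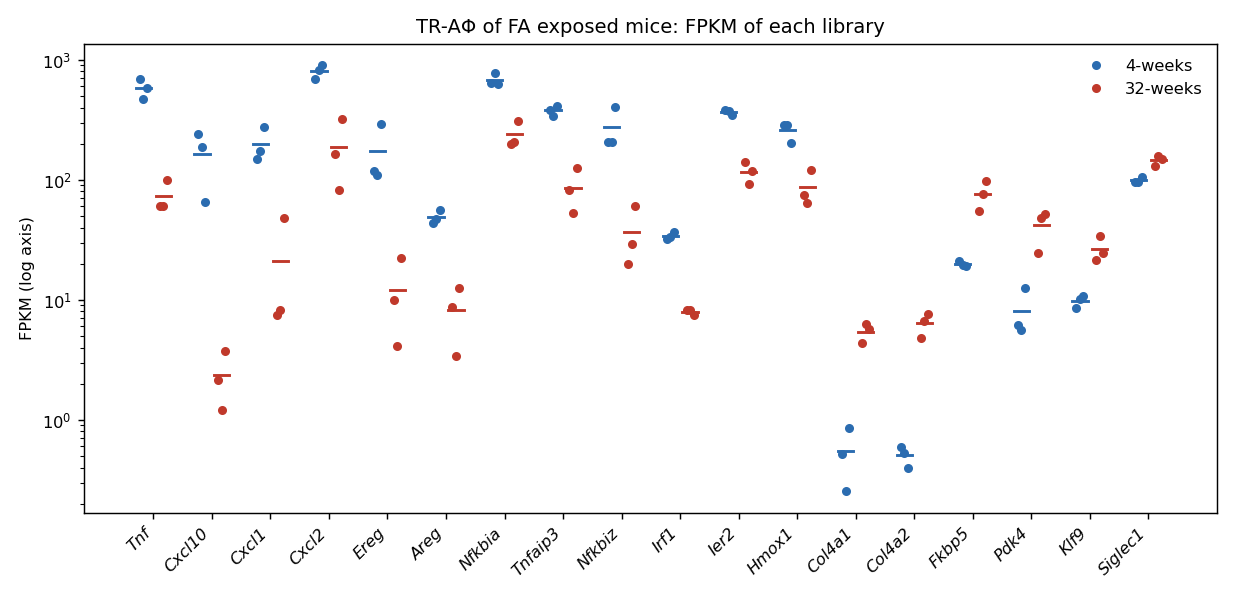
FPKM (log axis) of 18 genes in TR-AΦ of FA mice, with 1 point per library, blue for 4-weeks and red for 32-weeks, and a bar at each mean of 3. The first 12 genes were lower and the last 6 higher at 32-weeks, and in each the 3 libraries of one time point all lie above those of the other.

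Of 26 chemokine and cytokine receptor genes 1 passed, with 13 below 0 and a median of -0.05. This was Ccrl2, a decoy-like receptor that binds chemerin without signalling, with 441, 436 and 383 FPKM at 4-weeks and 52.5, 66.6 and 138 FPKM at 32-weeks (log2 fold change -2.40, SE 0.39, adjusted p 0.00766). The GM-CSF receptor genes Csf2ra and Csf2rb had log2 fold changes of 0.19 and 0.15 and did not pass. The call of Ccrl2 was lost without replicate 0 of 32-weeks (adjusted p 0.0513). Of 26 scavenger and phagocytic receptor genes, whose median was 0.05, 1 passed, Clec4e, which encodes Mincle, a lectin for mycobacterial and fungal glycolipids. It had 71.0, 91.6 and 114 FPKM at 4-weeks and 9.57, 14.0 and 22.8 FPKM at 32-weeks, a log2 fold change of -2.56 (SE 0.35, adjusted p 0.00410). The abundant members Clec7a, Cd68, Tlr2 and Axl had log2 fold changes of -0.30, 0.43, -0.57 and 0.22 and did not pass. Several further genes past the threshold belong to no list and were picked out after their values were seen. Nlrp3, the sensor of the inflammasome that matures interleukin 1β, had 118, 137 and 128 FPKM at 4-weeks and 46.5, 43.9 and 58.7 FPKM at 32-weeks (-1.35, adjusted p 0.00410). Icam1, an adhesion ligand of leukocyte integrins, had 80.6, 71.8 and 99.8 FPKM and then 27.2, 23.6 and 30.6 FPKM (-1.59, adjusted p 0.00477). Kdm6b, a histone H3 lysine demethylase induced in activated macrophages, and Phlda1, an early response gene, fell by 1.40 and 1.71 (adjusted p 0.00982 and 0.00683), and the lectin genes Clec1a and Clec12b, 38.9 kb apart on chromosome 6, fell by 1.87 and 2.02 (adjusted p 0.00648 and 0.00556). In all 6 the libraries of the time points did not overlap, as in all 106 genes past the threshold and 15.8% of all genes tested.

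Of 28 immediate early genes 4 were lower at 32-weeks, 0 were higher, and the median was -0.58. Egr1, a zinc finger factor induced by growth signals and stress, had 666, 802 and 701 FPKM at 4-weeks and 213, 59.7 and 225 FPKM at 32-weeks (log2 fold change -2.34, SE 0.48, adjusted p 0.0345). Egr3, its relative, had 8.56, 9.54 and 28.8 FPKM and then 1.83, 0.878 and 1.66 FPKM (-2.58, adjusted p 0.0167). Ier2, a nuclear protein of the first wave, had 382, 374 and 343 FPKM at 4-weeks and 140, 92.7 and 118 FPKM at 32-weeks (-1.66, SE 0.23, adjusted p 0.00410). Gadd45b, a stress sensor that is also an NF-κB target, fell by 1.98 (adjusted p 0.00978). Of these 4 calls 1, Ier2, was left without replicate 0 of 32-weeks, and 2 were left without replicate 1 of 32-weeks, without replicate 0 or 1 of 4-weeks or without replicate 2 of both. In a model of just the 6 libraries 0 were left. Egr1 passed in 1 of the 6 fits that leave out a library, Egr3 and Gadd45b in 3 and Ier2 in all 6. Not all abundant members lay below 0. Fos, the partner of Jun in AP-1, had 361, 478 and 403 FPKM at 4-weeks and 1051, 395 and 668 FPKM at 32-weeks, with a log2 fold change of 0.66 (adjusted p 0.47). Dusp1, Junb and Zfp36 had log2 fold changes of 0.32, -0.57 and -0.97 and did not pass. Ppp1r15a, also called Gadd34, which lets translation resume after stress, was the 1 of 17 unfolded protein response genes that passed. It had 99.2, 70.4 and 61.9 FPKM at 4-weeks and 22.7, 15.1 and 17.3 FPKM at 32-weeks (-2.003, SE 0.32, adjusted p 0.00683). Hspa5, the chaperone BiP, and Xbp1 had log2 fold changes of -0.58 and 0.56 and did not pass. Of 19 heat shock chaperone genes 0 passed, with a median of -0.38. In that list Hspa1a had 24.3, 21.98 and 69.2 FPKM at 4-weeks and 13.5, 3.13 and 8.66 FPKM at 32-weeks (-2.05, adjusted p 0.44).

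Of 27 interferon-induced genes 2 passed, both lower, and the median was -0.09. Irf1, a transcription factor of the interferon response, had closely grouped replicates, with 32.1, 33.3 and 36.5 FPKM at 4-weeks and 8.29, 8.16 and 7.43 FPKM at 32-weeks. It lies on chromosome 11 (53770014 to 53778374) and fell by 1.96 (SE 0.22, adjusted p 0.000461). Isg15, a ubiquitin-like protein, had 14.0, 7.90 and 7.69 FPKM at 4-weeks, was listed at 0 in 1 of the 32-weeks libraries and had 1.42 and 1.95 FPKM in the others (-2.45, SE 0.46, adjusted p 0.0195). The abundant members Parp14, Trim30a and Ifih1 had log2 fold changes of -0.20, 0.04 and -0.74 and did not pass. In the interferon list as a whole 16 of 27 genes lay below 0. Irf1 passed whichever library was left out, and Isg15 in 3 of 6 such fits. The count was 1 without replicate 0 of 32-weeks, without replicate 0 or 1 of 4-weeks or with just the 6 libraries, 4 without replicate 2 of 4-weeks, where the list's median was 0.03, and 3 without replicate 2 of both.

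Among CDK inhibitors, p53 targets and apoptosis genes, 2 of 25 were lower and 0 higher. Bcl2l11, which encodes the pro-apoptotic protein Bim, had 86.1, 121 and 99.8 FPKM at 4-weeks and 31.6, 33.1 and 19.2 FPKM at 32-weeks (-1.86, SE 0.27, adjusted p 0.00483), and Cdkn1b, the gene of the cell cycle inhibitor p27, fell by 1.09 (adjusted p 0.0390). Bcl2l11 passed in all 6 fits that leave out a library and Cdkn1b in none of them (adjusted p up to 0.149). The abundant Mcl1 and Cdkn1a had log2 fold changes of -0.53 and -0.54 and did not pass. Of 28 NRF2 targets and antioxidant genes 3 were lower. Hmox1, haem oxygenase 1, had 288, 289 and 203 FPKM at 4-weeks and 74.7, 64.3 and 122 FPKM at 32-weeks (-1.60, SE 0.23, adjusted p 0.00410), and it was also the 1 of 15 iron and haem genes that passed. Sqstm1, the autophagy receptor p62, and Sod2, mitochondrial superoxide dismutase, fell by 0.85 and 1.04 (adjusted p 0.0123 and 0.0213). Sod2 is also known as an NF-κB target. Hmox1 passed in all 6 fits that leave out a library, Sqstm1 in 4 (not without replicate 0 or 1 of 4-weeks) and Sod2 in 1 (without replicate 0 of 4-weeks). Gpx1 and the ferritin genes Ftl1 and Fth1 had log2 fold changes of 0.08, 0.36 and 0.29 and did not pass, and the median of the NRF2 list was -0.13. In the TGF-β list Skil, a repressor of Smads, was the 1 of 18 that passed (-0.87, adjusted p 0.0465), and it kept its call in 1 of 6 such fits. Proz, protein Z of the coagulation system, had 9.67, 13.1 and 4.83 FPKM at 4-weeks and 0.103, 0.669 and 0.240 FPKM at 32-weeks (-2.86, adjusted p 0.000419), and Marcksl1, a regulator of actin, fell by 2.77 (adjusted p 0.0123). Proz passed in all 6 of those fits, and Marcksl1 did not without replicate 0 or 1 of 32-weeks.

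The clearest rise was of basement membrane collagen. Col4a1 and Col4a2 encode the α1 and α2 chains that assemble into type IV collagen. Col4a1 had 0.521, 0.253 and 0.863 FPKM at 4-weeks and 4.35, 6.29 and 5.70 FPKM at 32-weeks. Col4a2 had 0.596, 0.530 and 0.399 FPKM at 4-weeks and 4.83, 6.65 and 7.67 FPKM at 32-weeks. Every 4-weeks library was below 1 FPKM and every 32-weeks library above 4 FPKM, with log2 fold changes of 2.07 (SE 0.21, adjusted p 0.000272) and 2.27 (SE 0.23, adjusted p 0.000205). They are encoded head to head on chromosome 8, Col4a1 on the minus strand (11198423 to 11312826) and Col4a2 on the plus strand (11312805 to 11449287), and the annotated genes overlap by 22 bases. They were the 2 of 21 matrix, protease and coagulation genes that passed, and the median of that list was 0.01. The abundant Lgals3 and Fn1 had log2 fold changes of 0.30 and 0.10 and did not pass. Of the fibroblast collagens, Col1a1, Col1a2 and Col3a1 had at most 0.235 FPKM in every library. The summed endothelial markers were 8.08 to 9.81 FPKM at 4-weeks and 8.24 to 8.39 FPKM at 32-weeks, but the members moved both ways. Mean Vwf, the largest, was 5.24 FPKM at 4-weeks and 4.70 FPKM at 32-weeks, and Pecam1 1.37 and 0.614 FPKM. Mean Eng was 0.890 and 1.49 FPKM, and Cdh5 0.195 and 0.625 FPKM. The part of such cells in the rise was not tested.

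Of 16 known targets of the glucocorticoid receptor tested, 3 were higher at 32-weeks, with none lower and a list median of 0.23. Fkbp5, a co-chaperone that dampens the receptor, lies on chromosome 17 (28399094 to 28517527) and had 21.0, 19.5 and 19.3 FPKM at 4-weeks and 54.7, 76.6 and 97.4 FPKM at 32-weeks. The 4-weeks libraries were nearly alike and the 32-weeks libraries spread over a wide range above them (log2 fold change 1.85, SE 0.34, adjusted p 0.0169). Klf9, a Krüppel-like factor, had 8.57, 10.1 and 10.7 FPKM and then 21.4, 34.2 and 24.5 FPKM (1.34, SE 0.28, adjusted p 0.0429). Pdk4, a kinase that closes the entry of pyruvate into mitochondria, had 6.15, 5.62 and 12.6 FPKM and then 24.4, 48.2 and 52.3 FPKM (2.23, SE 0.48, adjusted p 0.0466). Other members did not follow, as Mt1 and Anxa1 had log2 fold changes of -0.56 and -0.32, Sgk1 and Dusp1 of 0.36 and 0.32, and Tsc22d3 of 0.78, and none of these passed. All 3 calls were lost in a model of just the 6 libraries, without replicate 2 of both time points and without replicate 1 or 2 of 32-weeks or replicate 0 or 1 of 4-weeks, each left out alone, and 1 was kept without replicate 0 of 32-weeks, without the filter on low values or with every library scaled to a common sum. Pdk4 and Ehhadh, the peroxisomal bifunctional enzyme, were the 2 of 26 fatty acid oxidation genes that passed, with a list median of 0.21. Ehhadh had 6.71, 8.66 and 8.90 FPKM at 4-weeks and 15.4, 17.2 and 15.5 FPKM at 32-weeks (0.91, SE 0.16, adjusted p 0.0123). Cpt1a and Hadha had log2 fold changes of 0.27 and 0.17 and did not pass. The fatty acid oxidation count was 0 without replicate 0 of 32-weeks, without replicate 0 of 4-weeks, with a common sum or with just the 6 libraries, and 1 without replicate 1 or 2 of 32-weeks, replicate 1 of 4-weeks or replicate 2 of both. Ehhadh kept its call in 4 and Pdk4 in 1 of the 6 fits that leave out a library. Outside the lists, Ucp3, a mitochondrial carrier, rose by 1.15 (adjusted p 0.0284) and Coro2b, an actin-binding coronin, rose by 1.36 (adjusted p 0.00556), with 9.64, 11.9 and 12.3 FPKM at 4-weeks and 31.1, 33.0 and 27.2 FPKM at 32-weeks. Nptxr, Mrpl20, Bcam, Chpf, Nuak2, Casp6 and Tmem138 were higher by 1.10, 1.11, 1.07, 0.95, 0.93, 0.89 and 0.71. When 1 library was left out Coro2b and Chpf passed in all 6 fits, Ucp3 in 1, Nuak2 in 3 and Nptxr, Mrpl20, Bcam, Casp6 and Tmem138 in 2 each. Siglec1, a sialic acid receptor of macrophages also picked out after its values were seen, had 96.7, 96.6 and 106 FPKM and then 129, 159 and 149 FPKM (0.54, adjusted p 0.0473).

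Genes of AΦ identity and housekeeping did not pass in number. None of 33 AΦ identity genes passed, and 25 lay above 0 with a median of 0.21. Over all 12388 genes 6470 lay above 0. None of 43 lysosomal genes passed, and 37 lay above 0 with a median of 0.21, with Ctsd, cathepsin D, at 1308, 1553 and 2131 FPKM and then 2493, 2310 and 2847 FPKM (0.64, adjusted p 0.26). None of 27 genes of lipid uptake, storage and efflux passed, and 23 lay above 0 with a median of 0.24. Abcg1, the cholesterol exporter, had 484, 567 and 575 FPKM at 4-weeks and 681, 724 and 727 FPKM at 32-weeks, groups that did not overlap but did not pass the test (0.39, adjusted p 0.24). All 32-weeks libraries lay above all 4-weeks libraries in 9 AΦ identity, 12 lysosomal and 9 lipid genes, and below in 1, 2 and 0. Over all genes tested the shares were 7.75% above and 8.05% below. The counts past the threshold were also 0 of 35 proliferation genes (median 0.29), 0 of 29 of cholesterol and fatty acid synthesis (-0.04), 0 of 25 of glycolysis (0.11), 0 of 57 respiratory chain subunits encoded in the nucleus (0.09), 0 of 14 MHC class II genes (0.16), 0 of 20 MHC class I genes (0.09), 0 of 14 complement genes (-0.22), 0 of 20 of prostaglandins, leukotrienes, nitric oxide and arginase (0.01), 0 of 13 circadian clock genes (0.21) and 0 of 77 ribosomal protein genes (0.05). Of the 13 mitochondrially encoded genes 1 was in the set tested, and it did not pass.

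**Figure D3:**
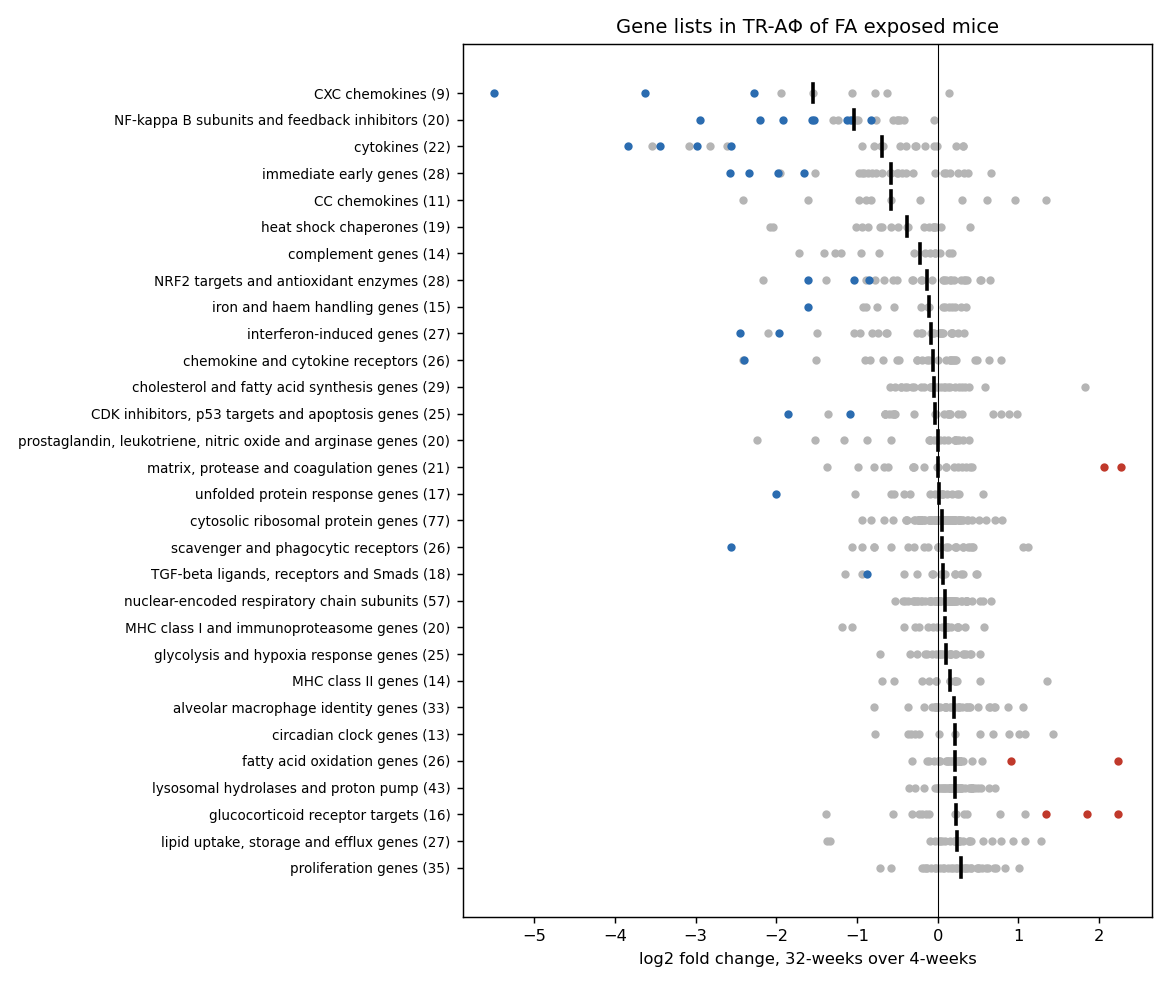
Log2 fold changes of 32-weeks over 4-weeks for the tested members of each gene list (number in brackets), with lower calls in blue, higher calls in red, other members in grey and a black bar at the median. Lists of cell type markers are not shown. Among the lists shown, CXC chemokines and the NF-κB list have the lowest medians, -1.55 and -1.04, and most other medians lie near 0.

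Some calls rest on uncertain values. Among the 106 genes 4, which are Gm24313, Gm11235, Gm29284 and Rn7s1, were listed at 0 in every library of one time point, where an estimate may have failed. Rn7s1, a copy of the 7SL RNA of the signal recognition particle, was listed at 0 in the 4-weeks libraries and had 1168, 746 and 626 FPKM at 32-weeks. It was at 0 in 18 of all 36 libraries, among them every library of BM-AΦ at 32-weeks, while its near-identical neighbour Rn7s2 had 690 to 972 FPKM at 4-weeks and 943 to 1619 FPKM at 32-weeks, so that reads of these copies may have been assigned differently. Of the 106 genes 74 are protein coding and 30 carry predicted or RIKEN names. By annotation class 14 are provisional transcripts without established coding status, 4 are processed pseudogenes, 3 are antisense transcripts and 3 are long intergenic RNAs.

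TR-AΦ of PM2.5 mice gave the same comparison in animals that share no library with the FA groups. Both comparisons came from 1 fit with the same error for a gene, so their calls are not independent. Any difference in age or handling between the time points may be common to both. With the compared groups alone 15 genes passed in FA mice and 21 in PM2.5 mice. In the main fit 133 genes (1.07%) passed in PM2.5 mice, 33 higher (0.266%) and 100 lower (0.807%). Of the 86 genes lower in FA mice, 83 were also below 0 in PM2.5 mice, where 44.6% of all genes tested were, and 58 passed there in the same direction. Of the 20 higher genes 19 were above 0, where 54.0% of all genes were, and 7 passed. The 65 shared calls made up 61.3% of the FA calls and 48.9% of the PM2.5 calls. The lower genes had a median log2 fold change of -1.27 in PM2.5 mice and the higher genes of 0.58. Tnf had 531, 476 and 659 FPKM at 4-weeks and 64.0, 55.2 and 64.8 FPKM at 32-weeks in PM2.5 mice (-3.15, adjusted p 2.00e-06), and Cxcl10 had 102, 100 and 77.7 FPKM and then 1.03, 0 and 1.87 FPKM (-5.70, adjusted p 0.000111). Col4a1 and Col4a2 rose by 1.79 and 2.03 (adjusted p 0.000661 and 0.000417). In the NF-κB list 7 of 20 passed, all lower, with all 20 below 0 and a median of -1.09.

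The genes that did not pass in PM2.5 mice included Fkbp5, which had 29.8, 26.3 and 22.8 FPKM at 4-weeks and 35.4, 58.2 and 21.6 FPKM at 32-weeks, groups that overlapped (0.43, adjusted p 0.60). Klf9 and Pdk4 had log2 fold changes of 0.40 and 1.61 there, and Isg15, Tnip1 and Mrpl20 of -0.82, -0.07 and -0.02. The difference between the exposures was tested as an interaction of exposure with time. It passed for 1 gene (0.00807%), Cdk8, and for none of the 106 calls, and 377 genes had an unadjusted p under 0.05. Among the 106, the interaction was -1.42 for Fkbp5 (unadjusted p 0.0103), 1.63 for Isg15 (0.0251), 0.75 for Tnip1 (0.00542) and -1.13 for Mrpl20 (0.00148), each with an adjusted p of 0.999 in limma. A p that misses the threshold does not show that the exposures act alike on these genes.

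**Figure D4:**
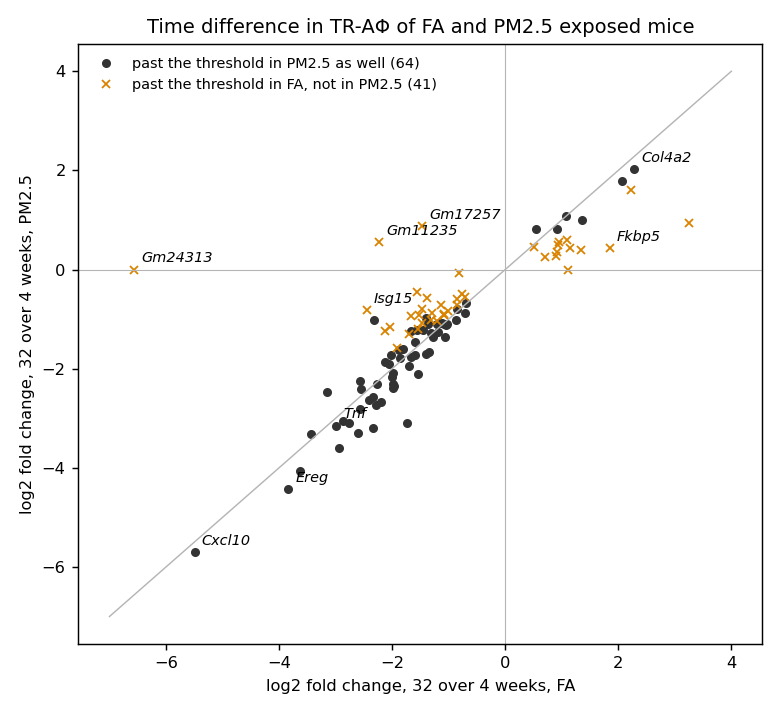
Log2 fold change of 32-weeks over 4-weeks in FA mice (horizontal) and in PM2.5 mice (vertical) for the called genes except Rn7s1, with the line of equal change. The 64 filled points also passed in PM2.5 mice, the 41 crosses did not, and Fkbp5 sits well below the line at 1.85 and 0.43.

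Monocytes sorted from the lungs of FA mice were compared across the same times, with those labelled Mono2 at 32-weeks read as CD45.2 cells by the key given for AΦ. Here 1373 genes (11.1%) passed, 619 higher (5.0%) and 754 lower (6.09%). Of the 86 genes lower in TR-AΦ, 77 were also below 0 in monocytes, where 52.8% of all genes were, 43 passed in the same direction and 1, Gm14221, in the other. Of the 20 higher genes 14 were above 0, 9 passed and 1, Nuak2, passed in the other direction (both names were picked out after their values were seen). Tnf fell by 2.23 in monocytes (adjusted p 5.94e-05), Nfkbia by 1.26 (adjusted p 0.000361) and Irf1 changed by -1.001 (adjusted p 0.0125), while Fkbp5 rose by 3.32 (adjusted p 8.98e-05). In the monocyte comparison 7 of 9 interstitial macrophage markers (median 3.89) and 12 of 33 AΦ identity genes were higher at 32-weeks, with 5 of the latter lower, so that the monocyte groups also differed in markers of macrophages, and the part of this in the monocyte values was not tested.

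The interaction of cell type with time passed for 309 genes (2.49%), among them 11 of the 86 lower and 4 of the 20 higher genes. The TR-AΦ and monocytes of a group came from the same 3 mice, and the fit treats their libraries as independent. The labels do not say that a replicate number marks a mouse. Deviations from the group mean were correlated across genes. For TR-AΦ and monocytes at 4-weeks, same-numbered libraries had 0.016, 0.062 and 0.052, and differently numbered ones -0.053 to -0.003. At 32-weeks the same-numbered values were 0.004, 0.017 and -0.007, within the range of the others (-0.048 to 0.040). TR-AΦ and BM-AΦ of 32-weeks had 0.069, 0.052 and 0.046 by the same number and -0.080 to 0.029 otherwise. These correlations are small and do not settle whether the replicate numbers mark mice. In a fit with the mouse as a block, read from those numbers and chosen after the data were seen, 742 genes passed, 305 of the 309 among them, with 31 of the 86 and 5 of the 20. Cxcl10 fell further in TR-AΦ than in monocytes, with a difference of -2.98 (adjusted p 0.0120). Ereg was listed at 0 in every monocyte library of FA mice but 1, which had 0.242 FPKM, and the difference in its change was -3.74 (adjusted p 0.00378). For Cxcl1 and Egr1 the difference was -3.53 and -2.75 (adjusted p 0.0172 and 0.0186), and in monocytes their log2 fold changes were -0.10 and 0.41. Col4a1 and Col4a2 rose further in TR-AΦ, by 1.44 and 2.36 (adjusted p 0.0126 and 0.00138). Tnf, Nfkbia and Irf1 did not pass this test, with differences of -0.75, -0.28 and -0.96. With the mouse as a block Irf1 passed (adjusted p 0.0336), and Tnf and Nfkbia did not (0.327 and 0.451).

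Levels over all groups place the TR-AΦ values. Tnf was 580 ± 108 FPKM in FA and 556 ± 93.8 FPKM in PM2.5 TR-AΦ at 4-weeks, and 73.5 ± 22.6 and 61.3 ± 5.33 FPKM at 32-weeks (SD, n = 3 each). BM-AΦ at 32-weeks, which come from donor marrow, lay beside TR-AΦ of that time point at 61.2 ± 12.5 FPKM in FA and 54.5 ± 4.59 FPKM in PM2.5 mice. The 12 libraries of these 4 groups lay between 50.7 and 99.6 FPKM, below every 4-weeks library. Col4a1 was 0.546 ± 0.306 and 0.678 ± 0.280 FPKM in the 4-weeks TR-AΦ groups, and at 32-weeks it was 5.44 ± 0.993 and 4.79 ± 0.723 FPKM in TR-AΦ and 6.67 ± 1.29 and 5.40 ± 1.41 FPKM in BM-AΦ, FA before PM2.5. Fkbp5 was at least 49.4 FPKM in every FA library of 32-weeks, TR-AΦ, BM-AΦ and both kinds of monocytes, and it spread from 7.37 to 58.2 FPKM in the PM2.5 libraries of 32-weeks. At 4-weeks it was 19.9 ± 0.921 FPKM in FA TR-AΦ and 5.60 ± 0.390 FPKM in FA monocytes.

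**Figure D5:**
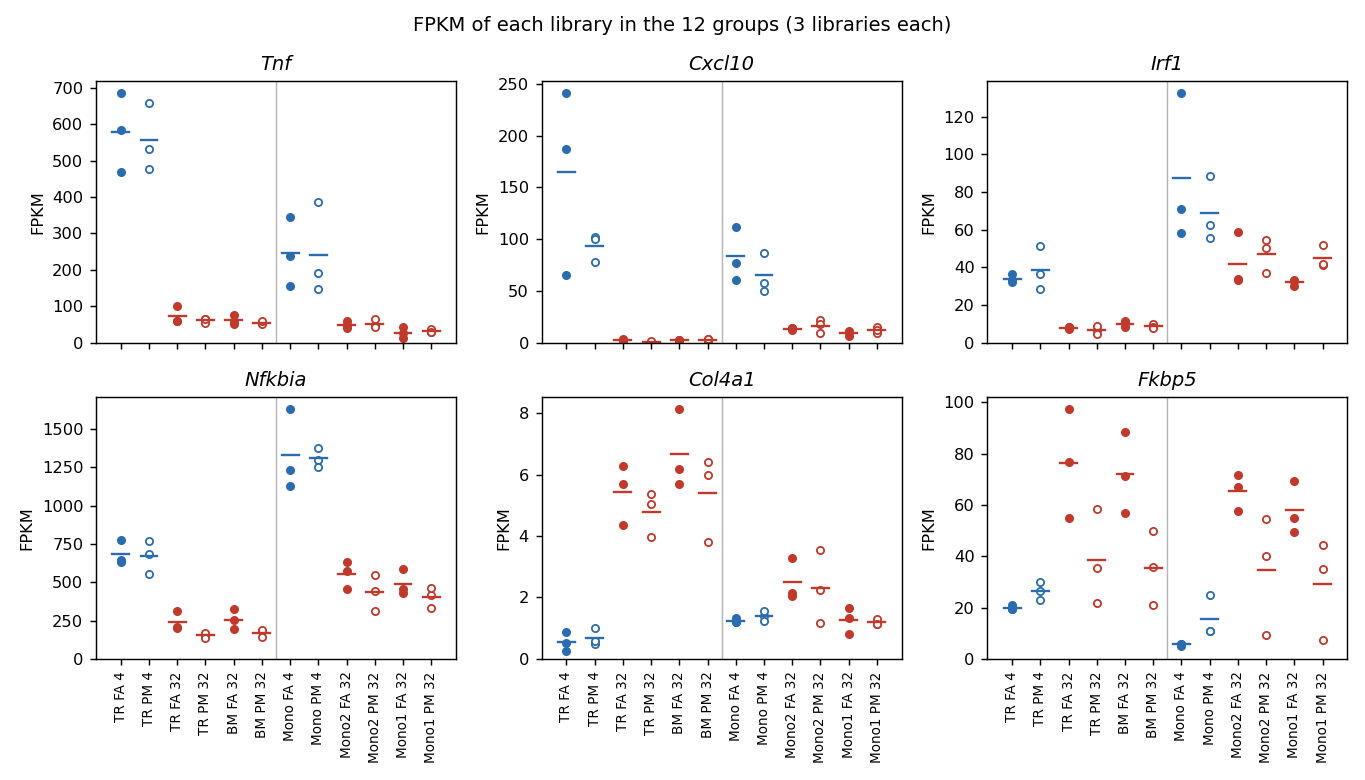
FPKM of 6 genes in each library of the 12 groups, with a bar at the mean of 3. Groups are named by cell (TR, TR-AΦ; BM, BM-AΦ; Mono, monocytes, numbered 1 and 2 at 32-weeks as in the labels), exposure and weeks, with 4-weeks in blue, 32-weeks in red, FA filled and PM2.5 open. Tnf, Cxcl10 and Nfkbia are lower in every group of 32-weeks than in the 4-weeks groups of the same cell type, and Fkbp5 is highest in the FA groups of 32-weeks.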

How the data were processed

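RNA of sorted AΦ and monocytes was made into libraries with a stranded SMART-Seq kit. Per the methods of the study, the authors trimmed reads with TrimGalore!, aligned them to mm10 with STAR and estimated FPKM with Cufflinks and the GENCODE annotation, whose release is not given in the sources used here. The authors deposited 1 table of FPKM values, with no counts, so that the depth of each library is unknown and no counting interval can be given. Exact zeros in such a table can be failed estimates.

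Libraries were grouped by their labels, and those labelled as CD45.2 AΦ at 32-weeks were taken as TR-AΦ. Genes whose FPKM averaged at least 1 in the 6 libraries were kept, and limma (3.58.1, R 4.3.3) was fitted with a variance trend to log2(FPKM + 1) over the 18 AΦ libraries of 6 groups, or over all 36 libraries for monocytes and for cell type by time. P-values were two-sided and Benjamini-Hochberg adjusted within a comparison, with a threshold of 0.05. Every adjusted p given comes from this fit unless an alternative fit is named with it. The error behind the p-values is the spread between libraries of a group, pooled over all groups of the fit. The sources used here do not say how many exposure experiments the sequenced mice came from. Per the study's methods the cell types of an exposure and time came from the same 3 mice, which the fits treat as independent libraries, and the labels do not say that replicate numbers mark mice. The fit was tested on simulated data.

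Genes named were the 15 with the largest fold change in each direction among those past the threshold with groups that did not overlap (leaving out predicted, RIKEN and small RNA or pseudogene names and genes listed at 0 in a whole group), all list members past the threshold, up to 4 members of each list by mean FPKM, and marker genes. Other genes (Il6, Ccl4, Hspa1a, Cxcl3, Cxcl16, Nfkb1, Rela, Relb, Mthfd2l, Tsc22d3, Cdkn1a, the fibroblast collagens, Rn7s2 and those said to be picked out) were chosen after their values were seen. Members and lists were chosen with earlier results of these data known. Gene coordinates are from GENCODE vM21 (GRCm38, the sequence of mm10), which held 12357 of the 12388 genes by identifier, and promoter windows (250 bases before to 50 after each start) are from RefSeq. The alternatives were a pseudocount of 0.1, no filter, a filter over the 18 AΦ libraries, quantile normalization, a common sum, the compared groups alone, no variance trend, the replicate number as a block, leaving out libraries and, added after the data were seen, the mouse (exposure, time and number) as a block and the 12 TR-AΦ libraries alone.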

Additional observations from a re-analysis of the deposited data

Results flagged for a closer look

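The change with time differed between exposures for Cdk8, a kinase of the Mediator complex, by 3.56 on the log2 scale (PM2.5 minus FA, adjusted p 6.60e-07 in limma). It had 9.45, 14.3 and 12.6 FPKM at 4-weeks and 10.3, 13.1 and 14.3 FPKM at 32-weeks in TR-AΦ of FA mice, and 11.8, 10.6 and 11.4 FPKM at 32-weeks in PM2.5 mice. In PM2.5 mice at 4-weeks it was listed at 0 in all 3 libraries, so the value has no true level on that side.

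For 9 of the genes named the change with time in FA mice differed between TR-AΦ and monocytes. The difference, TR-AΦ minus monocytes, was -2.98 for Cxcl10, -3.74 for Ereg, -3.53 for Cxcl1 and -2.75 for Egr1. It was 1.81 for Nuak2, a kinase of the AMPK family, 1.63 for Mrpl20, a protein of the mitochondrial ribosome, 1.44 for Col4a1 and 2.36 for Col4a2. The 9th, Clec12b, which was picked out after its values were seen, had -2.02 (adjusted p 0.00380 in limma). Its log2 fold change in monocytes was 0, so this difference is the same as its change in TR-AΦ. Nuak2 fell by 0.88 in monocytes (adjusted p 0.00122) and rose by 0.93 in TR-AΦ, with an adjusted p of 0.000803 for the difference. The monocyte groups also differed in macrophage markers between time points, and the part of this in the differences was not tested.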

How the results depend on the processing

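The 106 genes became 15 with the 2 compared groups alone and 205 with the replicate number as a block, which kept 105 of the 106. They ranged from 50 to 179 when 1 library was left out: 50 without replicate 0 of 32-weeks, 52 and 55 without replicate 0 and 1 of 4-weeks, and 179 without replicate 2 of 4-weeks, with 88 of the 106 among them. The TR-AΦ libraries alone gave 68. Other settings gave 72 (common sum) to 118 (quantile normalization). Same-numbered libraries of the 2 time points had correlations of deviations of 0.06, -0.03 and 0.20, and differently numbered ones -0.21 to 0.17. The value of 0.20, between both libraries numbered 2, was the highest, while replicate 0 of 4-weeks correlated best with replicate 1 of 32-weeks. Whether a replicate number marks something shared between libraries was not tested. In PM2.5 mice the 133 genes became 83 with a common sum, 21 with the compared groups alone and 397 with the replicate block, and 55 to 254 without 1 library. The exposure by time count of 1 became 2 with the compared groups alone and 1 to 3 without 1 library. The cell type by time count of 309 became 464 without the filter, 180 with a common sum, 69 with the compared groups alone 568 with the replicate block and 742 with the mouse as a block, and 102 to 365 without 1 library, with the lowest value without replicate 0 of the 32-weeks monocytes. Except where the number of samples or genes changed, the cause was not tested.

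Of 47 named genes none changed sign in 15 alternatives, and 31 passed with the TR-AΦ libraries alone. Cxcl10, Tnf, Irf1 and Col4a2 passed in all 15, and 19 passed whichever single library was left out. With the compared groups alone 5 passed, without replicate 2 of both time points 27, and with a common sum 32. The number of NF-κB genes called lower was 1 to 10, of CXC chemokines 1 to 4, of cytokines 1 to 8 and of immediate early genes 0 to 4, and 19 or 20 of the 20 NF-κB genes stayed below 0. Siglec1 passed in 5 and Kdm6b in 11 of the alternatives. The median of all genes moved between -0.04 and 0.06.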
